A study of Mus musculus with 9 samples.

Results

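Thermogenic genes are the genes by which brown adipocytes make heat, and here they were followed in the mouse aorta, which is wrapped in brown fat along its thoracic course. A set of 10 genes was named: Ucp1, Cidea, Dio2, Elovl3, Ppargc1a, Ppargc1b, Prdm16, Adrb3, Slc27a2 and Acot11. Every probe set that the platform annotation pairs with exactly 1 of these genes was taken, and the probe set with the highest mean over the 9 arrays served as the gene's main row. The main rows were 1418197_at for Ucp1, 1417956_at for Cidea, 1418937_at for Dio2, 1420722_at for Elovl3, 1460336_at for Ppargc1a, 1449945_at for Ppargc1b, 1440870_at for Prdm16, 1416316_at for Slc27a2 and 1429267_at for Acot11. The annotation gave 19 probe sets for 9 of the 10 genes, out of 45037 probe sets and 18193 genes on the array. Adrb3, the beta-adrenergic receptor through which sympathetic nerves drive brown adipocytes, had no probe set of its own by this rule and was not analysed here.

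The study compared aortae of male mice that lack the clock transcription factor BMAL1 (BMAL-/-, 4 arrays: F02, F03, F05 and F08) with BMAL+/+ mice (5 arrays: F01, F04, F07, F09 and F10), each on a background partially backcrossed onto C57Bl/6J. All mice had spent at least 2 weeks in cycles of 12 h light and 12 h dark, then at least 30 h in darkness, and were killed at ZT14, 14 h after the time at which the lights would have come on. The label names no tissue to which the loss of BMAL1 is restricted. The vessels were perfused, dissected from the aortic arch to just past the femoral branches and frozen, and the labels do not say how much fat was left on them. Ages are not given in the labels used here.

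Brown adipocytes burn fatty acids in their mitochondria, and uncoupling protein 1 lets protons return to the matrix without making ATP, so that the energy appears as heat. Noradrenaline starts this through beta-adrenergic receptors, cyclic AMP and protein kinase A, which free fatty acids from lipid droplets and raise transcription of Ucp1, Dio2 and Ppargc1a. Perivascular fat of the mouse thoracic aorta resembles brown fat of the back more than white fat, and the clock protein BMAL1, with its partner CLOCK, binds E-box sequences in many promoters.

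Markers of the vessel and of fat were both read. Myh11, the myosin of smooth muscle, read between 11.6 and 13.3 on the deposited log2 scale in every array, where array medians lay between 3.13 and 3.24. Cox7a1 and Cox8b, respiratory chain subunits of muscle and brown fat, read 10.3 to 13.0 and 9.28 to 13.1. Muscle RNA was in these samples too, so these 2 genes do not mark brown fat alone. Zic1 and Lhx8, transcription factors that mark the brown fat of the back, read at most 2.84 and 3.51, and Tmem26, a beige adipocyte marker, at most 3.58. Of the 7 measured beige genes, 5 had a mean under 3.5, while Tbx1 read 3.67 to 4.84 and Slc27a1 6.58 to 8.27. Of the 8 white adipocyte markers, 4 had a mean under 3.5. Retn read 10.6 to 12.3, Lep 5.97 to 8.03, Hoxc8 6.86 to 7.72 and Nnat 3.74 to 8.69. Adipoq, the adipocyte hormone adiponectin, read 12.27 to 14.01.

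Before the comparisons, some arrays have to be set apart. Arntl, the gene of BMAL1, read 5.87 to 6.22 on F02, F03 and F08 and 2.74 to 2.82 on F01, F07, F09 and F10, but 6.67 on F04, labelled BMAL+/+, and 2.77 on F05, labelled BMAL-/-; where its probe set lies relative to the deletion was not determined, so the level does not check the genotype. Npas2 and Nr1d2 also placed F04 with the BMAL-/- arrays and F05 with the BMAL+/+ arrays, and the differences of the members and the medians of the gene lists are therefore given for the 9 arrays as labelled and for the 7 without F04 and F05. The source name of F01 reads BMAL-/-, against its title and strain. The arrays also differed in signal along a transcript: the probe sets at the 3′ end of the Gapdh transcript exceeded those at its 5′ end by 2.88 to 3.31 log2 on F02, F03 and F04 and by -0.13 to 1.26 on the other 6 arrays. The dap and thr spike-in controls, which are no mouse transcripts, had wide gaps on the same arrays (2.27 to 2.81 against 1.13 to 1.98 for dap, 3.66 to 4.06 against 0.84 to 2.31 for thr), so the gap is not a measure of tissue RNA alone. The cre hybridisation control stayed between -0.23 and -0.09 on all 9. These 3 wide-gap arrays comprise 2 of 4 BMAL-/- arrays and 1 of 5 BMAL+/+ arrays.

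Promoter sequences are shown for the 3 members whose cyclic AMP control is named above, because Dio2 and Ppargc1a are the genes with the lowest p-values in the comparison that follows. They are the 250 bases before the RefSeq start of each gene in GRCm38.p6, read 5′ to 3′ on the gene's strand, with capitals for TGACG or its reverse complement CGTCA, the core of the cyclic AMP response element, and position -1 as the last base before the start. Ucp1 lies at chr8:83290098-83290347 on the plus strand, with the core at -147. Ppargc1a lies at chr5:51567726-51567975 on the minus strand, with the core at -49. Dio2 lies at chr12:90739039-90739288 on the minus strand, where overlapping cores at -95 and -92 form the full palindrome TGACGTCA.
Ucp1: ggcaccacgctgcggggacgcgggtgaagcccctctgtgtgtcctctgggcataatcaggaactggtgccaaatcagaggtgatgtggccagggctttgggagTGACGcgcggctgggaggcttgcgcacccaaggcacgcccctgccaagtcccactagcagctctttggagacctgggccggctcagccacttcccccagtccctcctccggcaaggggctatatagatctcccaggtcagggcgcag
Ppargc1a: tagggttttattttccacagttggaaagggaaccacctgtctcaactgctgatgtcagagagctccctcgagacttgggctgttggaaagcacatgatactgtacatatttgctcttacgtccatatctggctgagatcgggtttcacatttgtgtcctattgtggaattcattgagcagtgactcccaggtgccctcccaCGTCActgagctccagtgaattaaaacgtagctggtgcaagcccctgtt
Dio2: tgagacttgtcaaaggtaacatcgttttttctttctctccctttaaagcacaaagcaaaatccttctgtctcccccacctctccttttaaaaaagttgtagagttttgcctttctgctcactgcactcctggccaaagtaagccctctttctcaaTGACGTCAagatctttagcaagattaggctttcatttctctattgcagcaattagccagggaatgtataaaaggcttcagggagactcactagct
The annotation gave 7 such promoters for 6 of the members, the other 4 having none in the table used. The core, searched on both strands, was in 3 of these 7 and in 17.8% of 32851 promoters of the same length, and the palindrome in 1 of 7 and in 1.55%. AGGTCA, a half-site of nuclear receptors, was in 2 of 7 (Slc27a2 and Ucp1) and in 14% of all. A match describes the letters of this window and not a bound site.

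The E-box CACGTG was in 1 of the 7 promoters and in 6.02% of all. It lay at -154 of the second start of Acot11 (chr4:106799832-106800081, minus strand), shown with the E-box in capitals because Acot11 is the sole member with it in this window.
Acot11: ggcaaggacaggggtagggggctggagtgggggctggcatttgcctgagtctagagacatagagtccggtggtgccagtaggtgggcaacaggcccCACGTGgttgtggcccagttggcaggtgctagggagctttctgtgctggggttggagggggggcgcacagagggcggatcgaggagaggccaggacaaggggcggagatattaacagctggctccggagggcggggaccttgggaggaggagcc
No other member promoter that was searched held CACGTG in its 250 bases.

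Across genotypes, no thermogenic gene passed the test. With limma and Benjamini-Hochberg adjustment over all 45037 probe sets, 0 of 9 members had an adjusted p under 0.05, where the whole array had 0% called. At an unadjusted p under 0.05, 2 of 9 members were higher in BMAL-/- (Dio2 and Ppargc1a) and none lower, where 6.52% of the 18193 genes, and 0.698% of the 4874 genes at least as bright as the dimmest member, were higher at that level. That count was 0 without F01, F02, F07 or F10, 1 without F03 or F05, and 0 with F01 placed in BMAL-/- as its source name says. The number of all genes higher at that level also fell in these fits, from 1186 to 341 without F01, 257 without F02, 397 without F07, 373 without F10, 286 without F03 and 203 with F01 in BMAL-/-, and it was 1424 without F05. The count of members stayed at 2 without F04 or without F08, where 3234 and 3953 of the 18193 genes were higher at that level. The median difference of the members, BMAL-/- minus BMAL+/+, was 0.20 log2, against 0.03 for all genes, with 6 members higher and 3 lower. This median ranged from -0.07 without F07 to 0.44 without F04 when 1 array was left out, and it was 0.0090 with the Gapdh gap as a covariate. The groups overlapped for every member, where 0.561% of all genes had higher BMAL-/- values without overlap.

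Without F04 and F05, again 0 of 9 members passed (4 of 45037 probe sets did, or 0.00888%). Then 3 of 9 had an unadjusted p under 0.05, all higher, beside 18.2% of all genes and 9.87% of the equally bright ones. The BMAL-/- values lay above all BMAL+/+ values for 2 of 9, beside 14.4% of all genes and 8.41% of the equally bright ones. The median member difference was 0.67 log2 against 0.04 for all genes.

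**Figure D1:**
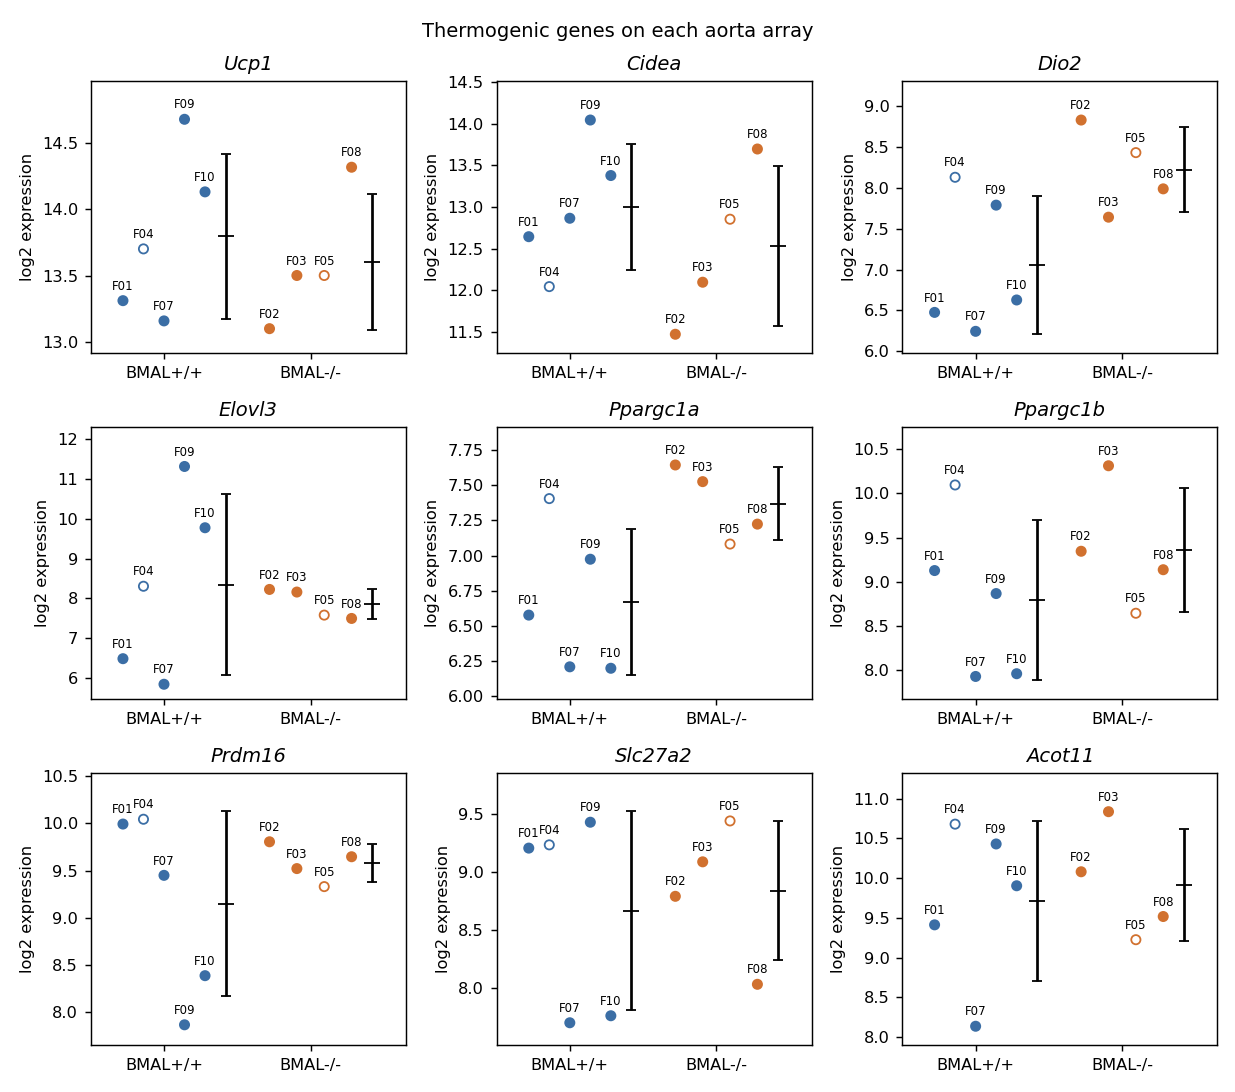
Log2 expression of the 9 measured thermogenic genes on each aorta array, with BMAL+/+ arrays on the left of each panel, BMAL-/- arrays on the right and mean ± SD beside them. Open points are F04 and F05; Ucp1 stayed between 13.10 and 14.68, while Elovl3 ran from 5.83 to 11.32.

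Ucp1, the uncoupling protein itself, was bright in every aorta. It read 13.31 on F01, 13.70 on F04, 13.16 on F07, 14.68 on F09 and 14.13 on F10 among BMAL+/+ arrays, and 13.10 on F02, 13.50 on F03, 13.50 on F05 and 14.32 on F08 among BMAL-/- arrays. The groups covered nearly the same range, with F09 and F08 the highest of each. The means were 13.80 ± 0.62 (SD, n = 5) and 13.61 ± 0.51 (SD, n = 4), a difference of -0.19 log2 (SE 0.35, 95% interval -0.99 to 0.60; limma adjusted p = 0.76). Without F04 and F05 the difference was -0.18.

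Cidea, a lipid droplet protein of brown adipocytes, was also bright in every aorta. It read 12.64, 12.04, 12.86, 14.04 and 13.38 on F01, F04, F07, F09 and F10, and 11.47, 12.10, 12.85 and 13.69 on F02, F03, F05 and F08. F09 and F08 were again the highest of their groups, and the lowest BMAL-/- value was F02. The lowest BMAL+/+ value of Cidea was F04, while that of Ucp1 was F07. The difference was -0.46 log2 (SE 0.51; limma adjusted p = 0.606), and -0.81 without F04 and F05 (adjusted p = 0.354). The 3 wide-gap arrays read 11.47 to 12.10 and the other 6 arrays 12.64 to 14.04, with no overlap, and with the Gapdh gap in the model the difference was 0.01. The part of the gap in this result was not tested beyond that.

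Dio2, the deiodinase that turns thyroxine into active T3 inside the brown adipocyte, had the highest fold of the members. The BMAL+/+ arrays read 6.48 (F01), 8.13 (F04), 6.25 (F07), 7.79 (F09) and 6.63 (F10), and the BMAL-/- arrays 8.83 (F02), 7.64 (F03), 8.43 (F05) and 7.99 (F08). F01, F07 and F10 lay below all BMAL-/- arrays, and F04 and F09 lay among them. The difference was 1.17 log2, or 2.25-fold higher in BMAL-/- (SE 0.44, 95% interval 0.16 to 2.18; limma p = 0.0278, adjusted p = 0.37; exact permutation p = 0.0714, two-sided). Without F04 and F05 it was 1.37 (limma p = 0.0191, adjusted p = 0.208; exact permutation p = 0.0857), with F09 at 7.79 still above F03 at 7.64.

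Neither of the further Dio2 probe sets carried a difference of that size. The probe set 1426081_a_at, which ran from 2.98 to 6.74, differed by 0.14 log2 over 9 arrays and by -0.36 without F04 and F05. The probe set 1418938_at stayed between 2.21 and 2.59, below the array medians, and measures little. The Dio2 result therefore rests on its main probe set, and averaging the gene's probe sets brought the difference to 0.47.

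Ppargc1a, the coactivator PGC-1α that drives mitochondrial genes and Ucp1, was measured by 5 probe sets. At the main one the BMAL+/+ arrays read 6.58 (F01), 7.40 (F04), 6.21 (F07), 6.97 (F09) and 6.20 (F10), and the BMAL-/- arrays 7.64 (F02), 7.52 (F03), 7.08 (F05) and 7.22 (F08). All 4 BMAL-/- arrays lay above 4 of the 5 BMAL+/+ arrays, and F04 lay among them. The difference was 0.70 log2, or 1.62-fold higher (SE 0.27, 95% interval 0.08 to 1.31; limma p = 0.0311, adjusted p = 0.37; exact permutation p = 0.0556, two-sided). All 5 probe sets were higher in BMAL-/-, by 0.30 to 0.83.

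Without F04 and F05 the Ppargc1a difference was 0.97 (limma p = 0.00472, adjusted p = 0.208; exact permutation p = 0.0571), and the groups did not overlap at 4 of its 5 probe sets. At main rows, 14.4% of all genes and 8.41% of those at least as bright as the dimmest member were higher in BMAL-/- without overlap. The smallest exact permutation p that these 7 arrays allow over 35 splits is 0.0286, and that of the 9 arrays over 126 splits is 0.00794. The probe sets of a gene share the arrays' RNA and are no replicates of each other.

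Ppargc1b, the related coactivator PGC-1β, read 9.13, 10.09, 7.93, 8.87 and 7.96 on F01, F04, F07, F09 and F10, and 9.34, 10.31, 8.64 and 9.14 on F02, F03, F05 and F08. The highest BMAL+/+ array was F04, above 3 of the 4 BMAL-/- arrays. The difference was 0.56 log2 (SE 0.50; limma adjusted p = 0.523), and 1.13 without F04 and F05 (p = 0.0334, adjusted p = 0.208; exact permutation p = 0.0571), where the BMAL-/- minimum of 9.14 stood just above the BMAL+/+ maximum of 9.13.

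The 3′ to 5′ gap moved with the coactivators. The wide-gap arrays read 7.40 to 7.64 for Ppargc1a and the others 6.20 to 7.22, and for Ppargc1b 9.34 to 10.31 against 7.93 to 9.14, with no overlap for either gene. With the Gapdh gap as a covariate, a choice made after seeing the arrays, the differences were 0.50 for Ppargc1a (limma adjusted p = 0.538), 0.17 for Ppargc1b and 0.99 for Dio2 (adjusted p = 0.538). Among the 6 narrow-gap arrays alone (4 BMAL+/+ and 2 BMAL-/-), which also leave out F04, Ppargc1a differed by 0.66, Dio2 by 1.42 and Ppargc1b by 0.42. Within the 3 wide-gap arrays, F02 and F03 against F04, the differences were 0.18, 0.11 and -0.27, with no test. The part of the gap in these results was not tested.

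**Figure D2:**
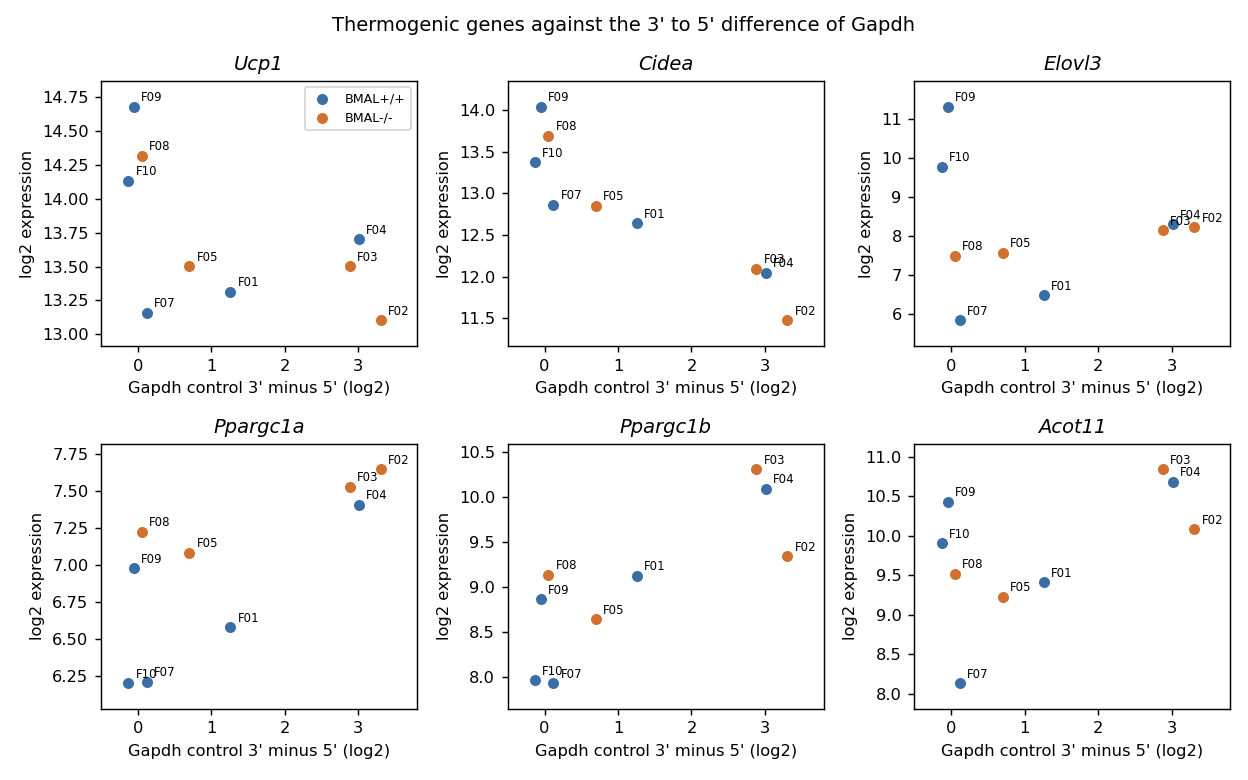
Log2 expression of 6 thermogenic genes against the difference between the 3′ and 5′ probe sets of the Gapdh control on each array (log2), coloured by genotype. The arrays F02, F03 and F04 stand at 2.88 to 3.31 on the horizontal axis, with Cidea low and Ppargc1a and Ppargc1b high on all 3.

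Prdm16, the transcriptional regulator that sets brown adipocyte identity, read 9.99, 10.04, 9.45, 7.87 and 8.39 on F01, F04, F07, F09 and F10, and 9.80, 9.52, 9.33 and 9.65 on F02, F03, F05 and F08. F09 and F10 were the low arrays; the 4 BMAL-/- arrays lay between 9.33 and 9.80. The difference was 0.43 log2 (SE 0.46; limma adjusted p = 0.597), and 0.73 without F04 and F05 (adjusted p = 0.344). The other 3 Prdm16 probe sets were dim, between 2.43 and 4.67.

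The lipid enzymes differed by less than their spread. Elovl3, the elongase of very long fatty acids, read 6.48, 8.30, 5.83, 11.32 and 9.77 on F01, F04, F07, F09 and F10, and 8.22, 8.16, 7.58 and 7.49 on F02, F03, F05 and F08. Its BMAL+/+ SD was 2.27 and its BMAL-/- SD 0.38, and the difference was -0.48 (SE 1.05; limma adjusted p = 0.80), and -0.40 without F04 and F05. F09 and F10 set the high end of Elovl3, and the wide-gap arrays lay in its middle.

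Slc27a2, a fatty acid transporter and very long chain acyl-CoA synthetase, read 9.21, 9.24, 7.70, 9.43 and 7.76 on F01, F04, F07, F09 and F10, and 8.79, 9.09, 9.44 and 8.03 on F02, F03, F05 and F08, with a difference of 0.17 (SE 0.47; limma adjusted p = 0.841), and 0.11 without F04 and F05. With array weights, which give each array its own reliability, it was 1.18 (adjusted p = 0.13). F07, F10 and F08 were its low arrays, drawn from both groups. Acot11, an acyl-CoA thioesterase of brown fat, read 9.41, 10.68, 8.13, 10.43 and 9.90, and 10.08, 10.84, 9.22 and 9.52 on the arrays in the same order. The difference was 0.20 (SE 0.54; limma adjusted p = 0.84), and 0.67 without F04 and F05 (adjusted p = 0.441). Its second probe set differed by 0.12 and ran from 4.81 to 6.59.

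**Figure D3:**
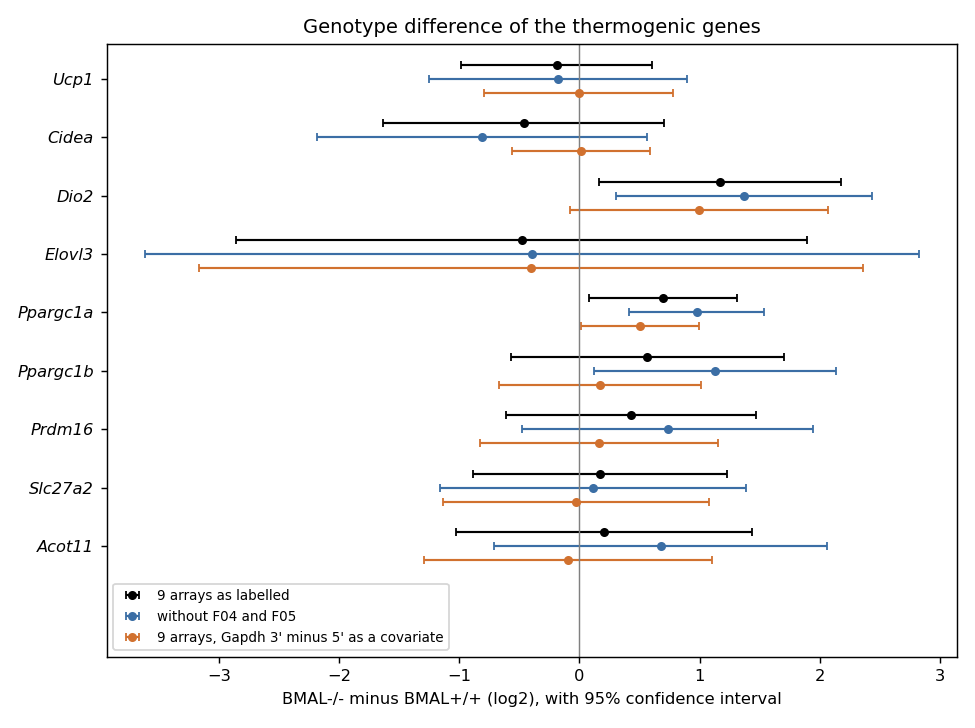
Difference between genotypes (BMAL-/- minus BMAL+/+, log2) for the 9 genes with 95% confidence intervals, for all 9 arrays, for the 7 arrays without F04 and F05, and for 9 arrays with the Gapdh 3′ minus 5′ difference in the model. Dio2 and Ppargc1a lie above 0 in all 3 fits, at 0.99 to 1.37 and 0.50 to 0.97, and the Dio2 interval includes 0 in the Gapdh fit.

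Some members rose and fell together from array to array. Over the 36 pairs of members, Pearson's r was positive in 24 and negative in 12, and 0 pairs passed Benjamini-Hochberg adjustment of the exact permutation test. Dio2 and Ppargc1a had the highest r, 0.88 (Spearman's rho 0.73; exact permutation p = 0.00354, adjusted 0.0981; n = 9), and 0.81 without the 2 arrays farthest from the Dio2 median. Ppargc1a and Ppargc1b had r = 0.84 (rho 0.87; exact permutation p = 0.00574, adjusted 0.0981), falling to 0.58 without 2 arrays. Ucp1 and Cidea had r = 0.81 (rho 0.70; exact permutation p = 0.00817, adjusted 0.0981), 0.53 without F09 and F08, and 0.97 among the 6 narrow-gap arrays. For the 7 arrays without F04 and F05, r was 0.91, 0.86 and 0.87 for these 3 pairs. A pool of 2292 genes at or above the median brightness with an SD of at least 0.5 was set beside these pairs. In it, 3.71% had an r with Ucp1 as high as that of Cidea and 8.81% as high as that of Elovl3. With Ppargc1b, 8.12% had an r as high as that of Ppargc1a and 12.8% as high as that of Acot11. The pool was not matched to the brightness of Ucp1 or Ppargc1b. No such share was computed for Dio2 with Ppargc1a.

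Ucp1 and Ppargc1a, by contrast, had r = -0.06 over the 9 arrays (exact permutation p = 0.872, adjusted 0.923). Among the 6 narrow-gap arrays r was 0.44 for this pair. For Cidea with Ppargc1a it was -0.50 over 9 arrays and 0.41 among those 6. Ucp1 with Acot11 went from 0.35 to 0.84, and Ppargc1b with Acot11 from 0.74 to 0.41. Dio2 with Ppargc1a and Ppargc1a with Ppargc1b had 0.92 and 0.78 among those 6. The part of the gap in these r was not tested. Prdm16 had both signs: r was 0.15 with Dio2, 0.37 with Ppargc1a, 0.49 with Ppargc1b and 0.08 with Slc27a2. It was -0.71 with Ucp1 (rho -0.42), -0.71 with Cidea (rho -0.72) and -0.78 with Elovl3 (rho -0.33), with exact permutation p-values of 0.0337, 0.0312 and 0.0150 and adjusted values of at least 0.127. Without the 2 arrays farthest from the median of Ucp1, Cidea or Elovl3, r was -0.66, -0.51 and -0.73. Each of these left out F09 but kept F10, the other low array of Prdm16. All r of Prdm16 rest on its main probe set. Its other probe sets were dim, and r was not computed for them.

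**Figure D4:**
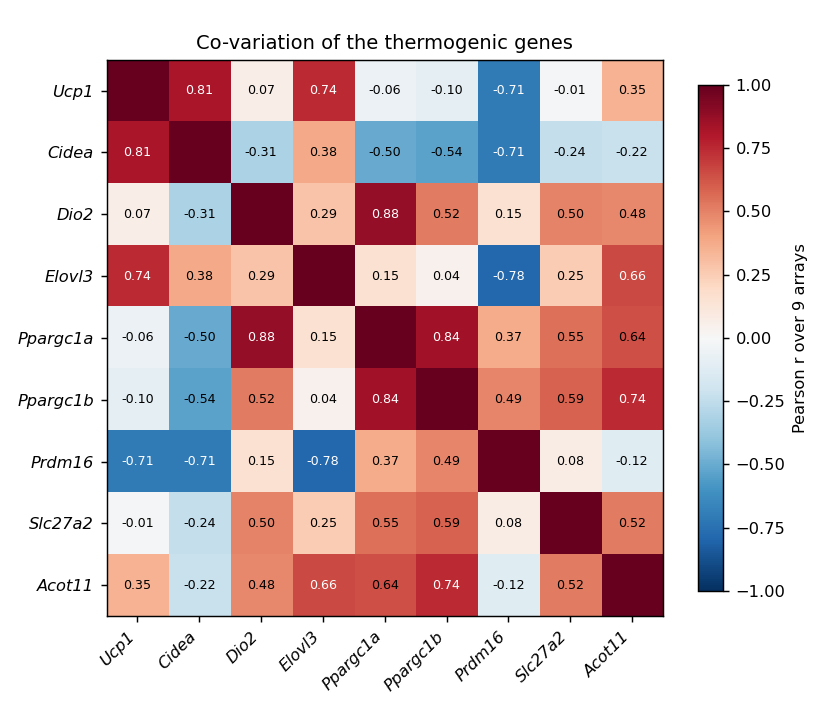
Pearson's r over the 9 arrays for each pair of the 9 thermogenic genes, from -1 (blue) to 1 (red). Dio2 with Ppargc1a (0.88), Ppargc1a with Ppargc1b (0.84) and Ucp1 with Cidea (0.81) are the highest, and Prdm16 with Elovl3 (-0.78) is the lowest.

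The genes most like Ucp1 across the 9 arrays, ranked by Pearson's r among genes at or above the median brightness with an SD of at least 0.5, were Msrb2 (0.96), Pla2g7 (0.94), Agpat3 (0.93), Ppdpf (0.92), Dele1 (0.92), Pkm (0.92), Nr1h3 (0.92), Dlst (0.91), Mrps22 (0.91) and Tmem14c (0.91). They are given as a description, with no p, since the ranking chose them.

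Other genes of the brown programme were read from a list of 20, of which 18 were measured. None passed limma's adjusted threshold and none had an unadjusted p under 0.05 over 9 arrays; 13 were higher and 5 lower in BMAL-/-, with a median of 0.04 log2. Over the 7 arrays without F04 and F05 the median was 0.29. In that fit 2 of the 18 had an unadjusted p under 0.05, both higher, beside 18.2% of all genes. The patterns of the 18 over the arrays varied. Fabp3, a fatty acid binding protein, had r = 0.87 with Ucp1 and -0.36 with Ppargc1b. Slc25a20, the mitochondrial carnitine carrier, had -0.23 and 0.95, and Acsl5, an acyl-CoA synthetase, 0.56 and 0.58. Plin5, a lipid droplet protein next to mitochondria, was among the 3 lowest p-values, reading 8.96 to 11.29 with a difference of 0.65 (limma adjusted p = 0.407). Mpzl2 differed by 0.54 and Zic1, near the floor, by 0.07. Plin5 and Zic1 were the 2 genes with an unadjusted p under 0.05 without F04 and F05. The wide-gap arrays read 10.85 to 11.29 for Plin5, against 8.96 to 10.59 on the other arrays. They read 10.68 to 11.27 against 8.76 to 10.30 for Mpzl2, and 12.67 to 13.11 against 11.76 to 12.63 for Slc25a20. Fabp3 and Acsl5 overlapped between wide-gap and other arrays. The part of the gap in these values was not tested.

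The control of these genes was read from a transcription factor list (20 of 20 measured, 13 higher and 7 lower, median 0.03) and a beta-adrenergic and lipolysis list (11 of 14 measured, 4 higher and 7 lower, median -0.09). Their medians without F04 and F05 were 0.08 and -0.10. None passed the adjusted threshold. Nrip1, a corepressor of brown fat genes, differed by -0.71 (limma adjusted p = 0.37), and Lipe, hormone-sensitive lipase, by -0.80 (adjusted p = 0.418). The wide-gap arrays read 6.54 to 7.41 for Nrip1, against 7.57 to 8.55 on the other arrays. For Lipe they read 7.13 to 7.78 against 8.42 to 10.11. The part of the gap in these 2 differences was not tested. Thrb, a thyroid hormone receptor, had the sole unadjusted p under 0.05 in these lists, at values of 1.96 to 2.00, which is at the floor.

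Adipocyte RNA as a whole varied between arrays. All 10 measured general adipocyte markers of 12 were lower in BMAL-/-, none with an adjusted p under 0.05 in limma, with a median of -0.26 log2; their mean level per array ran from 11.38 to 12.56 in BMAL+/+ and from 10.89 to 11.83 in BMAL-/-. The 3 wide-gap arrays had the lowest means, 10.89 to 11.47 against 11.57 to 12.56 on the other 6, and 2 of those 3 are BMAL-/-; the part of the gap in this shift was not tested. The median without F04 and F05 was -0.37. Fewer adipocytes and less RNA per adipocyte cannot be told apart in these bulk samples. With that mean as a covariate, the differences were 1.15 for Dio2 and 0.62 for Ppargc1a (limma adjusted p = 0.764 for each), 0.21 for Ucp1 and 0.19 for Cidea.

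Muscle RNA varied more. The mean of the 8 skeletal muscle markers ran from 3.83 on F01 to 10.86 on F07, and that of the 8 cardiac muscle markers from 5.21 on F02 to 9.91 on F09. Ppargc1a is also expressed in muscle, and the part of muscle RNA in its values was not tested. For the other lists, none had a member called over the 9 arrays. The beige list (7 of 8 measured, 5 of them with a mean under 3.5) had a median of 0.02, the genes of heat production without UCP1 (10 of 11) -0.02, the paralogs of the members (18 of 23) 0.02 and the white adipocyte markers (8 of 8) 0.03. Among the paralogs, Elovl5, a fatty acid elongase related to Elovl3, read 9.54 to 11.19 with a difference of 0.68 (limma adjusted p = 0.37). Its wide-gap arrays read 11.04 to 11.19 and the other arrays 9.54 to 11.03. The endothelial markers (8 of 8) had a median of -0.25, the fibroblast markers (7 of 8) -0.73 and the neuron and Schwann cell markers (6 of 8) -0.53. The 8 smooth muscle markers had a median of -0.59 and the 8 macrophage markers -0.62, with all members of both lists lower in BMAL-/- and none called. Their means were also lowest on the wide-gap arrays: 9.77 to 10.37 against 11.05 to 11.54 for smooth muscle and 6.10 to 6.78 against 6.80 to 8.15 for macrophages, and the fibroblast means were 8.17 to 9.001 against 9.61 to 10.25. The part of the gap in these shifts was not tested. Without F04 and F05 the medians were -0.995 for smooth muscle, -0.96 for macrophage, -1.19 for fibroblast, -0.35 for endothelial, -0.24 for neuron and Schwann cell, 1.36 for skeletal muscle and -1.93 for cardiac muscle markers, against 0.76 and -0.91 over 9 arrays for the muscle lists. Those of the beige, UCP1-independent, paralog and white lists were 0.03, -0.07, 0.07 and 0.03.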

How the data were processed

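RNA of 9 mouse aortae was measured on Affymetrix MOE 430V2 arrays, 5 BMAL+/+ and 4 BMAL-/-, grouped by title and strain. The deposited values are log2 expression; the authors' tools, GCRMA and MAS5, are named in the submitters' processing notes, with no role or version given, and no scanner files were used here. Of 45101 probe sets, 64 controls were left out, which leaves 45037; 34945 were paired with 1 gene by the platform annotation, 932 with several and 9160 with none listed, and 34741 of the 34945 matched RefSeq symbols. Background correction, normalization and probe set summary were therefore not repeated, and no depth applies: the number of arrays limits the precision.

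limma 3.58.1 in R 4.3.3 (lmFit, eBayes with a mean-variance trend) compared the genotypes over all 45037 probe sets, two-sided, with Benjamini-Hochberg adjustment and a threshold of 0.05; the code was tested on simulated data. Correlations and single differences used exact permutation over arrays. The labels call the arrays biological replicates. Alternatives were other normalizations, variance models, filters, labels, covariates and each array left out. The members and gene lists were chosen with earlier results of these data known. Genes named from the wider lists are those with the 3 smallest p-values over 9 arrays, the 10 genes most like Ucp1, and markers beside a result. Cox7a1, Cox8b, Lhx8, Fabp3, Slc25a20, Acsl5, Slc27a1, Retn and Lep were named after their values were seen. The wide Gapdh gap, a 3′ minus 5′ difference over 2 log2, and the comparisons that use it were chosen after seeing the data.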

Additional observations from a re-analysis of the deposited data

Results flagged for a closer look

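Of 38 groups of member probe sets tested for a single array far from its group, 1 stood out: the Dio2 probe set 1418938_at read 2.59 on F05, labelled BMAL-/-, with the next BMAL-/- value at 2.25. Chance alone marks about 1 in 20 such groups. The probe set lies below the array medians of 3.13 to 3.24, and its main Dio2 partner read 8.43 on F05, within the BMAL-/- range of 7.64 to 8.83.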

How the results depend on the processing

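No paired analysis was possible because the groups share no replicate numbers. No member had an adjusted p under 0.05 in limma under any of the alternatives run; the lowest was 0.0657, for Dio2 with array weights. Dio2 (0.47 to 1.81 log2), Ppargc1a (0.50 to 0.97) and Ppargc1b (0.17 to 1.13) stayed above 0 in all 23 alternatives each, and 20 of 207 gene results changed sign. Array weights gave 0.044 for Ucp1 and 0.37 for Elovl3. The adipocyte marker covariate gave 0.21 for Ucp1, 0.19 for Cidea, 0.28 for Elovl3 and -0.058 for Prdm16. The Gapdh covariate gave 0.0090 for Cidea, -0.027 for Slc27a2 and -0.10 for Acot11, and a block for the wide-gap arrays gave -0.14 for Acot11. The 6 narrow-gap arrays alone gave 0.089 for Ucp1, 0.042 for Cidea and -0.10 for Acot11. Leaving out 1 array moved Ucp1 from -0.43 to 0.029, Elovl3 from -1.11 to 0.26, Slc27a2 from -0.070 to 0.44 and Acot11 from -0.19 to 0.44; the positive Ucp1 and Elovl3 values came without F09. The count of members at an unadjusted p under 0.05, 2 with the arrays as labelled, was 0 with F01 in BMAL-/-, 0 with the adipocyte covariate, 1 with the mean of probe sets, 1 with the Gapdh covariate, 1 with the block and 0 to 2 with 1 array left out (0 without F01, F02, F07 or F10). It was 3 with array weights, where Slc27a2 joined at 1.18 against 0.17, and 3 without F04 and F05. All genes higher at that level, 1186 as labelled, numbered 203 with F01 in BMAL-/-, 180 with the adipocyte covariate, 1259 with the mean of probe sets, 867 with the Gapdh covariate, 1828 with the block and 3549 with array weights. They numbered 257 to 3953 with 1 array left out and 3309 without F04 and F05. The count without overlap went from 0 to 2 without F04 and F05. Leaving out 1 array kept all 9 members short of the adjusted threshold. The cause of these changes was not tested.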
